A study of Mus musculus with 18 samples.

Results

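All 9 enzymes of serine synthesis and one-carbon metabolism examined here, Phgdh, Psat1, Psph, Shmt1, Shmt2, Mthfd1, Mthfd2, Mthfd1l and Ahcy, had a higher mean transcript ratio in the lymphomas than in the thymus reference. The genes were chosen by name, with earlier results of these data known, through every probe annotated to 1 of them alone. That gave 15 of the 37295 probes with enough values and 9 of the 18147 genes tested. The samples were 18 lymphomas, each from mice lacking Atm, mTerc and p53 together (Atm-/-, mTerc-/-, p53-/-). RNA of each lymphoma was set, on 2-colour Agilent arrays with a dye swap, against 1 common reference: thymus RNA from healthy p53 heterozygotes that were 3 weeks old. Atm encodes a kinase of the DNA break response, mTerc (Terc) the telomerase RNA, and p53 a transcription factor activated by DNA damage. The age of the mice with lymphoma and the cell type of the tumours are not given in the labels. No lymphoma of another genotype and no thymus of the triple knock-out was measured here, so knock-out effects, tumour effects and cell content cannot be told apart.

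Cells make serine from a glycolytic intermediate in 3 steps, catalysed in turn by Phgdh, Psat1 and Psph. The serine hydroxymethyltransferases Shmt1, in the cytosol and nucleus, and Shmt2, in mitochondria, move a carbon unit from serine to tetrahydrofolate and release glycine. Folate enzymes then oxidise or reduce that unit: Mthfd2 and Mthfd1l work in series in mitochondria and release formate, and Mthfd1 carries the corresponding activities in the cytosol, where the unit feeds purine, thymidylate and methionine synthesis. Ahcy hydrolyses S-adenosylhomocysteine, the product of every methylation that uses S-adenosylmethionine. The pathway is known for its high activity in dividing cells, and T cells raise its mitochondrial enzymes when they are activated.

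Values are log2 ratios of lymphoma to thymus, so that 1 is 2-fold higher and 0 is equal. The deposited logarithm was taken as base 10, which is inferred, and every fold given here depends on that. The direction of the ratio is likely rather than stated: read this way, Terc was lower than in thymus in 18 of 18 lymphomas (mean -1.47 ± 0.58, SD, n = 18) and Atm in 17 of 18 (-0.65 ± 0.53, SD, n = 18). Read the other way, every sign would turn, and each rank or share of increases given here would be one of decreases. Array medians lay between -0.04 and 0.12, and the median gene had a mean of 0.05 and an SD of 0.53 over lymphomas. In 7 lymphomas, numbers 1, 2, 3, 5, 15, 17 and 18, the mean of 11 macrophage markers lay between -3.24 and -2.42, while it lay between -0.16 and 2.32 in the other 11. Lymphomas 7, 12 and 14 correlated least with the rest over all genes (mean r 0.120, 0.285 and 0.240, against 0.527 to 0.601). In lymphoma 12, thymic epithelium markers were not lower than in thymus (list mean 0.37), in lymphoma 7 they were at -0.79, and in the other 16 they lay between -5.06 and -3.02. Results are therefore also given without the 7 or without the 3. In RNA of whole tissue, fewer cells of a type and less RNA per cell cannot be told apart.

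Each of the 9 enzymes passed the test of its mean ratio against 0 as higher in lymphoma (limma, Benjamini-Hochberg adjusted p under 0.05 over all genes). Of all genes tested, 57.8% passed, 29.9% as higher (5419 genes) and 27.9% as lower. The fit found 8 of the 9 enzymes at least 2-fold higher as well, Psph being the exception, against 4.30% of all genes. Phgdh, Psat1, Shmt2, Mthfd1, Mthfd2 and Mthfd1l lay above 0 in 18 of 18 lymphomas, as did 4.92% of the 17001 genes with a value in every lymphoma. The median of the 9 means was 1.55, beside 0.05 over all genes tested. Because the enzymes were chosen with earlier results of these data known, these shares and medians are descriptions and do not measure enrichment. The reference is 1 control whose own spread is not in the test. The labels do not state that each lymphoma is from a different mouse, and the p-values here reflect the spread among these 18 samples alone.

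**Figure D1:**
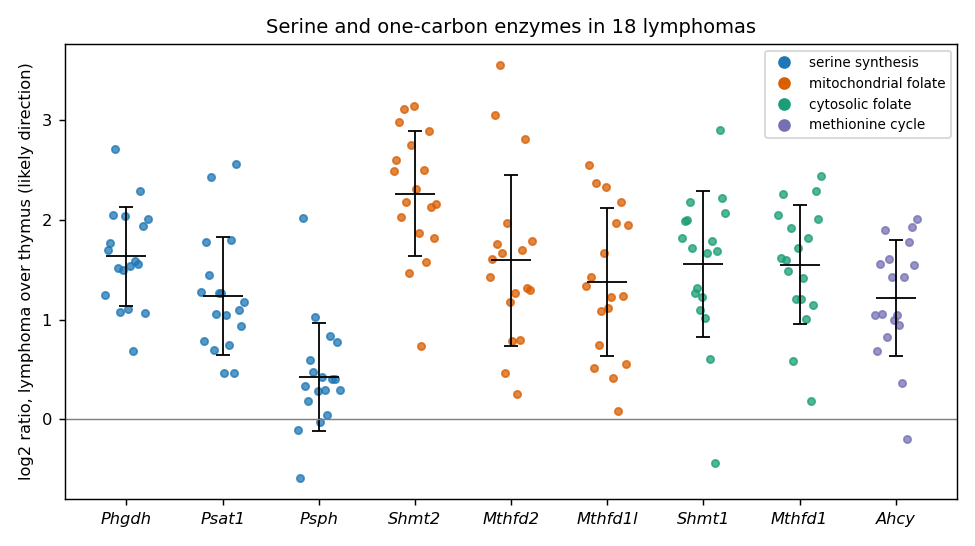
Log2 ratio of lymphoma to thymus (vertical axis) for each of the 9 enzymes (horizontal axis), with 1 point per lymphoma and the mean and SD beside the points. Shmt2 has the largest mean, 2.27, and Psph the smallest, 0.43, with points on both sides of 0.

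In serine synthesis, the enzymes of the first and second steps had larger mean changes than that of the last. Phgdh, which oxidises the glycolytic intermediate and commits it to serine, ranged from 0.69 in lymphoma 12 to 2.72 in lymphoma 5, with a median of 1.58. It was above the reference in every lymphoma and at least 2-fold higher in 17 of 18. Its mean was 1.63 ± 0.50 (SD, n = 18), 3.11-fold (limma, adjusted p = 2.21e-09). Its promoter window, 250 bases before to 50 after the transcript start on the minus strand of chr3:98339920-98340219, is shown because Phgdh and Mthfd2 were among the most closely correlated of the enzymes. Capitals mark CCAAT, a motif bound by the factor NF-Y, on either strand.

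Phgdh: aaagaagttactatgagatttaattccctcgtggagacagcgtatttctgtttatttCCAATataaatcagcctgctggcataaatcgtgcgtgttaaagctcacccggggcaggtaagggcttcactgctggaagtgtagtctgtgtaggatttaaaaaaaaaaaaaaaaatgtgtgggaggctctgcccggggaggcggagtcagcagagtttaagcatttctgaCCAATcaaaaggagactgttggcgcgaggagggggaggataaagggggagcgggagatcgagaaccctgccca

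Psat1, the transaminase of the second step, lay between 0.46 in lymphoma 14 and 2.56 in lymphoma 15, with a median of 1.14. Lymphomas 15 and 5 (2.43) held the highest values, and 12 of 18 were at least 2-fold higher than the reference. The mean of Psat1 was 1.24 ± 0.59 (SD, n = 18), 2.36-fold (limma, adjusted p = 2.96e-07). Psph, the phosphatase of the last step, ranged from -0.59 in lymphoma 2 to 2.02 in lymphoma 3, with a median of 0.37. Lymphoma 3 stood alone at the top, the next highest being lymphoma 8 at 1.03, and lymphomas 1, 2 and 10 lay below the reference. The mean of Psph was 0.43 ± 0.54 (SD, n = 18), 1.34-fold (limma, adjusted p = 0.00707). Without lymphoma 3 the mean was 0.33 and still passed.

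The mitochondrial enzymes held both the largest mean change and the widest spread. Shmt2, which makes mitochondrial glycine and one-carbon units from serine, ranged from 0.74 in lymphoma 12 to 3.14 in lymphoma 9, with a median of 2.25. Apart from lymphoma 12, all lymphomas were at least 2-fold higher than the reference, the next lowest being lymphoma 7 at 1.47. Its mean of 2.27 ± 0.63 (SD, n = 18), 4.81-fold, ranked 38 among the increases of all 18147 genes (limma, adjusted p = 6.39e-10). Mthfd2, the dehydrogenase and cyclohydrolase that is low in most adult tissues, ranged from 0.26 in lymphoma 12 to 3.56 in lymphoma 5, with a median of 1.52. The top value is 11.8-fold over thymus, lymphoma 3 followed at 3.06, and the lowest 3 were lymphomas 12, 7 (0.47) and 10 (0.79). The mean of Mthfd2 was 1.60 ± 0.86 (SD, n = 18), 3.02-fold (limma, adjusted p = 8.99e-07), with 14 of 18 lymphomas at least 2-fold higher. It was 2.22 ± 0.90 (SD, n = 7) in the lymphomas low in macrophage markers and 1.20 ± 0.56 (SD, n = 11) in the others, a difference that was not tested. Mthfd1l, the mitochondrial synthetase that frees formate, ranged from 0.08 in lymphoma 14 to 2.55 in lymphoma 2, with a median of 1.29. Lymphoma 14 was level with the reference, and 13 of 18 were at least 2-fold higher. The mean of Mthfd1l was 1.38 ± 0.74 (SD, n = 18), 2.60-fold (limma, adjusted p = 1.00e-06). The promoter windows of Shmt2 (minus strand, chr10:127522395-127522694) and Mthfd2 (minus strand, chr6:83317555-83317854) are shown. Shmt2 had the largest mean change, and Mthfd2 was the enzyme that passed with Atf4 over all 18 lymphomas. CCAAT or its other strand ATTGG is in capitals.

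Shmt2: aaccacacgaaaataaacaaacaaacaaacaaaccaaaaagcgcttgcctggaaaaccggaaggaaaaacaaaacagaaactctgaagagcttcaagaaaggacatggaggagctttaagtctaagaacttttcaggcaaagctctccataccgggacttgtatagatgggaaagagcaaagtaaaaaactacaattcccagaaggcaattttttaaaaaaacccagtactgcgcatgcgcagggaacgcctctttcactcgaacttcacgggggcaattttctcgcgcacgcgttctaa
Mthfd2: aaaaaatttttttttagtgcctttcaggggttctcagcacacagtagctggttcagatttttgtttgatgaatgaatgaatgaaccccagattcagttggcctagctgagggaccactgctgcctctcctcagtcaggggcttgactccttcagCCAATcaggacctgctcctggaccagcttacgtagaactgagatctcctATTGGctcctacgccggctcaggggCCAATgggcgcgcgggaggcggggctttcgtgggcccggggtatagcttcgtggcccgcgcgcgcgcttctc

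The cytosolic enzymes rose as well, with lymphoma 14 as the low point of both. Shmt1, the cytosolic serine hydroxymethyltransferase, ranged from -0.44 in lymphoma 14 to 2.90 in lymphoma 16, with a median of 1.70. Lymphoma 14 alone lay below the reference, and the next lowest was lymphoma 12 at 0.60. The mean of Shmt1 was 1.56 ± 0.73 (SD, n = 18), 2.96-fold (limma, adjusted p = 1.90e-07), with 16 of 18 at least 2-fold higher. In the 7 lymphomas low in macrophage markers it was 1.93 ± 0.20 (SD, n = 7), and in the others 1.33 ± 0.86 (SD, n = 11), a difference that was not tested. Mthfd1, the trifunctional cytosolic enzyme, ranged from 0.19 in lymphoma 14 to 2.44 in lymphoma 18, with a median of 1.61. Lymphomas 14 and 7 (0.59) were under 2-fold and the other 16 above it. The mean of Mthfd1 was 1.55 ± 0.60 (SD, n = 18), 2.94-fold (limma, adjusted p = 2.33e-08).

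Ahcy, which clears the by-product of methylation and returns homocysteine to the methionine cycle, ranged from -0.19 in lymphoma 14 to 2.01 in lymphoma 18, with a median of 1.24. It was above the reference in 17 of 18 lymphomas and at least 2-fold higher in 12. The mean of Ahcy was 1.22 ± 0.58 (SD, n = 18), 2.33-fold (limma, adjusted p = 2.90e-07). Where an enzyme had several probes, they moved the same way: the 3 Phgdh probes had means of 2.03, 1.29 and 1.59, the Psph probes 0.39 and 0.46, the Shmt1 probes 1.54 and 1.59, the Mthfd1 probes 1.45 and 1.66 and the Ahcy probes 1.04 and 1.40. All 15 probes passed as higher when every probe was tested by itself (limma), as did 29.6% of all probes, while 25.9% passed as lower.

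By lymphoma, all 9 enzymes lay above the reference in 14 of 18 tumours. The mean over the 9 was lowest in lymphoma 12 (0.57) and lymphoma 14 (0.64) and highest in lymphoma 5 (2.16), with a median of 1.44. All 9 were at least 2-fold higher in lymphomas 3 and 8, and at least 8 of them were in 7 lymphomas. Shmt2 had the largest ratio of the 9 in 9 lymphomas, and Psph the smallest in 13. In lymphoma 12 only Mthfd1, at 1.01, reached 2-fold. That tumour also had the smallest spread over all genes (SD 0.59, against 0.90 to 1.35 in the others) and thymic epithelium markers near the level of thymus, and the part of that in its low values was not tested.

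In lymphoma 14 the enzymes differed widely. Mthfd2 (1.70), Shmt2 (1.58) and Phgdh (1.56) were well above thymus there, while Psat1 (0.46), Mthfd1 (0.19), Mthfd1l (0.08), Ahcy (-0.19) and Shmt1 (-0.44) were not 2-fold higher. Psph (0.84) lay between, also under 2-fold. The same tumour had the highest Atf4 ratio of the 18 (1.90), the lowest mean of cell cycle genes (-0.60) and the lowest mean of T cell markers (-3.46). Its means of macrophage markers (2.32) and of endothelium and fibroblast markers (3.33) were the highest of the 18. The part of its cell content in these values was not tested.

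**Figure D2:**
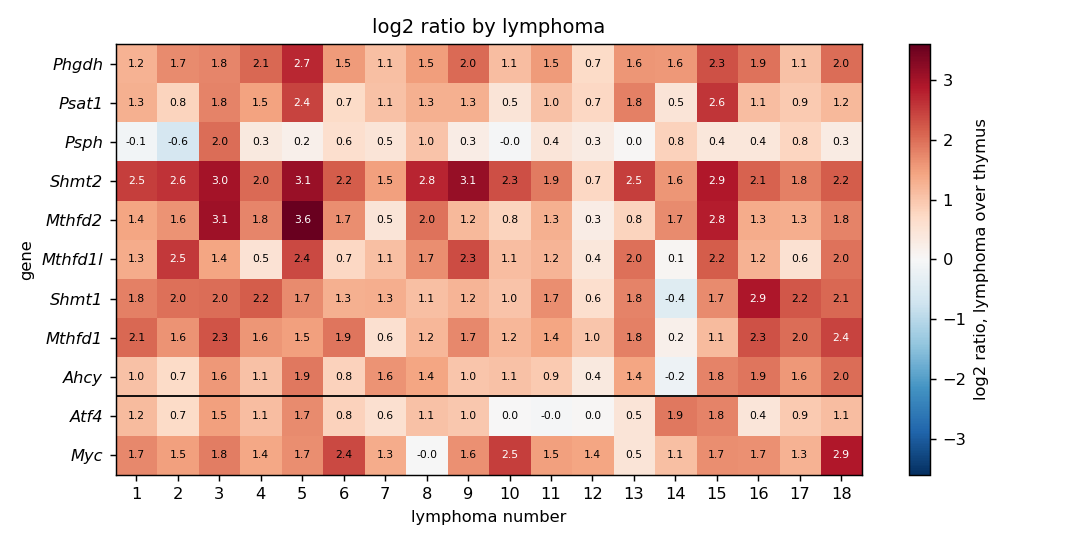
Log2 ratio of lymphoma to thymus (colour) for the 9 enzymes and, below the line, Atf4 and Myc (rows) in each of the 18 lymphomas (columns), with the value rounded in each cell. Lymphoma 12 is pale in all 9 enzymes, its values running from 0.26 to 1.01, and lymphoma 14 combines values above 1.5 for Phgdh, Shmt2 and Mthfd2 with values below 0 for Shmt1 and Ahcy.

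All 9 means stayed above 0 and passed in the 11 lymphomas without the low macrophage markers. Of all 18147 genes tested, 3556 passed as higher in those 11, 697 of them at least 2-fold. In those 11, 6 of 11 macrophage markers and 3 of 10 endothelium and fibroblast markers passed as higher as well, and their part in the result was not tested. There Shmt2 was at 2.07, Phgdh at 1.51, Mthfd1 at 1.36, Shmt1 at 1.33, Mthfd2 at 1.20, Mthfd1l at 1.13, Ahcy at 1.04, Psat1 at 1.03 and Psph at 0.43. Of these 9 values, 8 were below the mean over all 18, and Psph was 0.43 in both. Without lymphomas 7, 12 and 14 the order at the top was Shmt2 at 2.47, Shmt1 at 1.78 and Mthfd1 and Mthfd2 at 1.75, and Psph stood at 0.40.

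Enzymes that share a reaction or a chain were compared within each lymphoma, over 6 pairs, by a two-sided sign-flip permutation test with Benjamini-Hochberg adjustment over the 6. These are differences between changes, not between levels of 2 transcripts. Shmt2 rose more than Shmt1: the difference was lowest in lymphoma 16 (-0.77), highest in lymphoma 14 (2.02), and above 0 in 15 of 18. Its mean was 0.70 ± 0.79 (SD, n = 18), a ratio of 1.63 between the folds, with a 95% interval of 0.31 to 1.10 (permutation, adjusted p = 0.00378). In the 11 lymphomas without low macrophage markers it was 0.74 (permutation, adjusted p = 0.04998). Shmt2 had 1 probe, with a mean of 2.27, and Shmt1 had 2, with means of 1.54 and 1.59. Probes of 1 gene can differ, those of Phgdh running from 1.29 to 2.03, and that spread is not in the interval.

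The 3 comparisons among Mthfd1, Mthfd2 and Mthfd1l did not pass. Mthfd2 less Mthfd1 ran from -1.02 in lymphoma 13 to 2.07 in lymphoma 5, with a mean of 0.04 ± 0.94 (SD, n = 18) and an interval of -0.43 to 0.51 (permutation, adjusted p = 0.850). Mthfd2 was the higher in 6 lymphomas only, so a few large values carried its mean. Mthfd1l less Mthfd1 was -0.18 with an interval of -0.57 to 0.22 (permutation, n = 18, adjusted p = 0.415), and Mthfd2 less Mthfd1l was 0.22 with an interval of -0.22 to 0.66 (permutation, n = 18, adjusted p = 0.415). The intervals allow differences in either direction.

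Along serine synthesis the changes were unequal. Phgdh, averaged over its probes, rose more than Psat1 in 13 of 18 lymphomas, by 0.39 ± 0.43 (SD, n = 18) with an interval of 0.18 to 0.61 (permutation, adjusted p = 0.00378). The Phgdh probes had means of 2.03, 1.59 and 1.29, and the only Psat1 probe 1.24, so the size of this difference depends on the probe. The interval covers the spread among lymphomas and not that between probes. Phgdh rose more than Psph in 17 of 18, the exception being lymphoma 3 at -0.25, and the difference reached 2.53 in lymphoma 5. Its mean of 1.21 ± 0.74 (SD, n = 18), a ratio of 2.31 between the folds, had an interval of 0.84 to 1.58 (permutation, adjusted p = 6e-05, from a p of 1e-05, the smallest that these permutations can give).

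**Figure D3:**
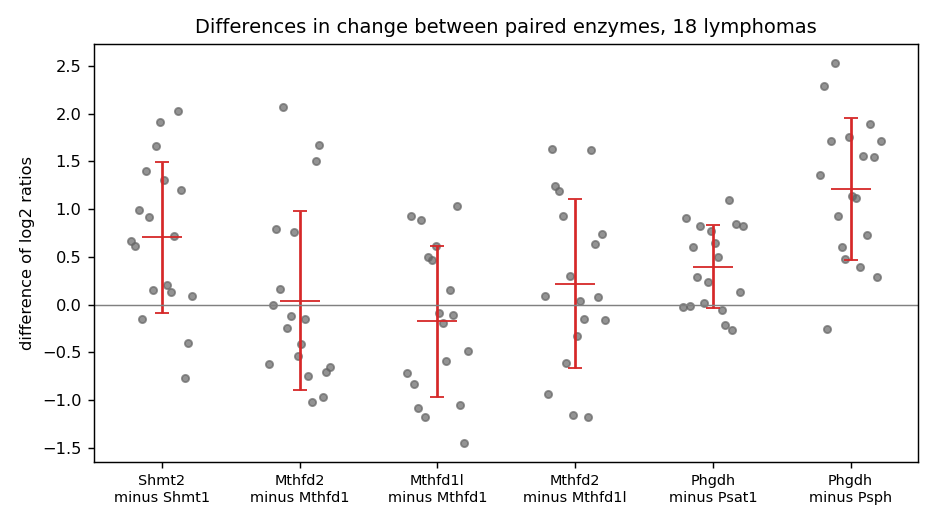
Difference of log2 ratios within each lymphoma (vertical axis) for 6 enzyme pairs (horizontal axis), with 1 point per lymphoma and the mean and SD in red. The points lie mostly above 0 for Shmt2 less Shmt1 (15 of 18), Phgdh less Psat1 (13) and Phgdh less Psph (17), and on both sides of 0 for the other 3 pairs.

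Across the 18 lymphomas most enzymes had positive correlations with each other, with Psph lowest. Of the 36 pairs, 33 (91.7%) had a Pearson r above 0, with a median of 0.39. Over all pairs of the 17001 genes with complete values 49.8% were above 0, and over pairs of the 775 of them that passed as at least 2-fold higher 74.6% were, with a median of 0.20. After Benjamini-Hochberg adjustment over the 36, 12 pairs (33.3%) passed by Pearson's r (r from 0.58 to 0.79) and 2 by Spearman's rho (permutation, two-sided). An r at least as high as the lowest of the 12 was found in 2.97% of all gene pairs and 7.21% of pairs of the 775. The spread over all genes differed between lymphomas (SD 0.59 to 1.35), and its part in these correlations was not tested. Those that passed by both were Shmt1 with Mthfd1 and Shmt2 with Mthfd1l. Shmt1 and Mthfd1 had r = 0.79 and rho = 0.75 (permutation, adjusted p = 0.00288 and 0.00900). Shmt2 and Mthfd1l had r = 0.77 and rho = 0.84 (permutation, adjusted p = 0.00288 and 0.00144). Without the 2 lymphomas farthest from the median of the enzyme named first, r was 0.63 for Shmt1 with Mthfd1 and 0.73 for Shmt2 with Mthfd1l. Within the 7 lymphomas low in macrophage markers the values were 0.69 and 0.62, and within the other 11 they were 0.81 and 0.78.

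Phgdh correlated with Mthfd2 at r = 0.77 and rho = 0.64 (permutation, adjusted p = 0.00312 and 0.0510), with r = 0.57 without the 2 farthest lymphomas, 0.83 in the 7 and 0.67 in the other 11. Shmt1 with Ahcy reached r = 0.73 and rho = 0.58 (permutation, adjusted p = 0.00675 and 0.0518), but r was -0.11 in the 7 and 0.82 in the 11. Psat1 with Mthfd2 had r = 0.68 and rho = 0.47 (permutation, adjusted p = 0.0116 and 0.144). For that pair r was 0.36 without the 2 farthest lymphomas, 0.88 in the 7 and 0.07 in the 11, and the difference between these sets was not tested. The 8 pairs with Psph had r between -0.33 and 0.36, and none passed. Each enzyme's r with the mean of the other 8 described the same order, from 0.75 for Shmt2, 0.74 for Psat1 and 0.73 for Phgdh down to 0.50 for Mthfd1 and 0.05 for Psph.

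The number of passing pairs depended on which lymphomas were included. It was 5 without lymphoma 5, and it lay between that and 13 over all 18 fits that each left out 1 lymphoma. In the 11 lymphomas without low macrophage markers 0 of 36 pairs passed, and without lymphomas 7, 12 and 14 it was 4. In those 11, r was above 0 for all 12 pairs that had passed, the lowest being 0.07 for Psat1 with Mthfd2. The 12 were picked over 18 lymphomas that include the 11, so these signs are not separate support.

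**Figure D4:**
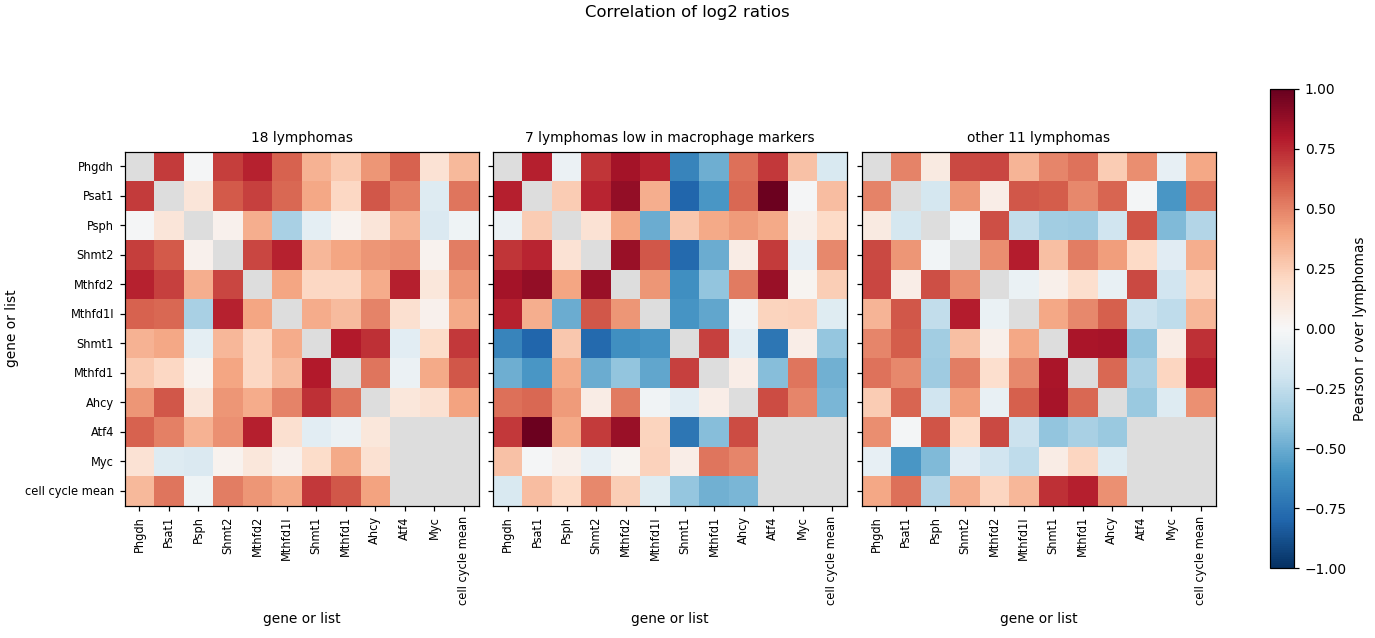
Pearson r (colour) between the log2 ratios of the 9 enzymes, Atf4, Myc and the mean of the cell cycle genes, over the 18 lymphomas, the 7 low in macrophage markers and the other 11. Psph is pale against the other enzymes over all 18 lymphomas, where its r values run from -0.33 to 0.36.

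Atf4, a transcription factor of the amino acid stress response known to activate serine synthesis genes, and Myc, a growth regulator known to activate Shmt2 and folate genes, were both higher in lymphoma. Atf4 had a mean of 0.90 ± 0.59 (SD, n = 18), 1.86-fold, above the reference in 17 of 18 (limma, adjusted p = 1.34e-05). Myc had a mean of 1.55 ± 0.66 (SD, n = 18), 2.92-fold, above it in 17 of 18 (limma, adjusted p = 7.31e-08). Both factors and the cell cycle mean were set against the 9 enzymes in 27 relations. The adjustment was over 36, the others being those with the macrophage mean over all 18 lymphomas, whose values are not given. Mthfd2 followed Atf4 across lymphomas, with r = 0.77 and rho = 0.80 (permutation, adjusted p = 0.00756 and 0.00792). Without the 2 lymphomas farthest in Atf4, r was 0.80, and it was 0.86 in the 7 and 0.66 in the other 11.

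No other enzyme passed with Atf4, Phgdh being nearest at r = 0.59 (permutation, n = 18, adjusted p = 0.0772). No enzyme passed with Myc, and its 9 values of r lay between -0.14 and 0.38. Shmt1 passed with the cell cycle mean by Pearson's r (0.71, permutation, adjusted p = 0.0326) but not by Spearman's rho (0.61, permutation, adjusted p = 0.115). Without the 2 farthest lymphomas that r was 0.47, and it was -0.39 in the 7 and 0.73 in the 11. The Pearson call was lost when lymphoma 2, 3, 4, 9, 10, 14 or 17 was left out, with r = 0.46 without lymphoma 14 and 0.69 or more without each of the others. Mthfd2 with Atf4 passed in all 18 such fits. The macrophage mean falls into separate clusters, so its r is given only within the 7 and within the 11, and none of those 18 relations passed after adjustment over the 18 (lowest adjusted p = 0.178, permutation, exact for the 7).

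Among 15772 other genes with complete values and enough spread, the 6 most like the mean of the 9 enzymes over the 18 lymphomas were Nup188 (r = 0.90), Nob1 (0.88), Wdr74 (0.88), Mars1 (0.88), Nup62 (0.87) and Aak1 (0.87). Nup188 and Nup62 encode nucleoporins, Nob1 and Wdr74 ribosome assembly factors, Mars1 the cytosolic methionyl-tRNA synthetase, and Aak1 a kinase of endocytosis. Their own mean ratios were 0.82, 0.93, 1.37, 1.44, 0.73 and 0.54, in that order. Mars1 lies close to Shmt2 in gene order on chromosome 10.

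Promoter windows of 300 bases were matched for all 9 enzymes in a table of RefSeq transcript starts on GRCm38.p6, which gave 10 windows, since Psat1 has a pair of them. The E-box CACGTG, which Myc and related factors bind, reads the same on the other strand. It was in 0 of the 10 windows, against 7.15% of all 32851 windows and 8.58% of those of genes tested here. The element TGATGNAA (TTNCATCA on the other strand), which Atf4 binds with C/EBP factors, was in 0 of 10. It was in 3.97% of all windows and 2.91% of those of genes tested here. With shares this low, 10 windows are too few to show fewer matches than other genes have. Neither absence says anything of binding, as only these letters in these windows were searched. CCAAT, searched on both strands, was in 7 of 10 windows (7 of 9 genes), against 37.4% of all windows and 37.7% of those of genes tested here. The GC box GGGCGG, also searched on both strands, was in 6 of 10 windows (6 of 9 genes), against 35.7% of all windows and 51.5% of those of genes tested. Matches overlapped in the Shmt1 window alone, where 2 GC boxes share a base. These last motifs were added after the first pair had given no match. Among the sequences shown above, that of Phgdh has CCAAT 193 and 23 bases before the start, and that of Mthfd2 has it, on either strand, at 96, 47 and 22. The window of Shmt2, the enzyme with the largest change, has no match to any of the 4 motifs.

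Each enzyme was compared with its chromosomal neighbours, the 10 nearest measured genes on each side in RefSeq gene order. Of the 173 neighbours, 53 passed as higher (30.6%) and 45 as lower. The enzyme exceeded the median of its neighbours for 8 of 9 (sign-flip permutation, two-sided, adjusted over 9, p from 1.8e-05 to 5.62e-05), with mean differences from 1.19 for Ahcy to 2.02 for Shmt2. The lowest of these comes from a p of 1e-05, the smallest that these permutations can give. The neighbour medians themselves averaged between -0.37 (Mthfd1l) and 0.24 (Shmt2), so this comparison largely repeats the test against 0. Mthfd1l, with only 3 measured genes on one side, exceeded its neighbours by 1.75. Psph did not pass: it exceeded its neighbours by 0.25 ± 0.58 (SD, n = 18) with a 95% interval of -0.04 to 0.54 and in 11 of 18 lymphomas (permutation, adjusted p = 0.0847). Its adjacent gene Cct6a, a chaperonin subunit, had a mean of 0.89, above that of Psph itself. Of the single neighbours, named after their values were seen, Hspa2 (1.66) was level with Mthfd1 and Wdr54 (1.62) with Mthfd2, while the highest beside Shmt2 was Mars1 (1.44). Shmt2 varied with its neighbours' median across lymphomas (r = 0.64, n = 18, given as a description).

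**Figure D5:**
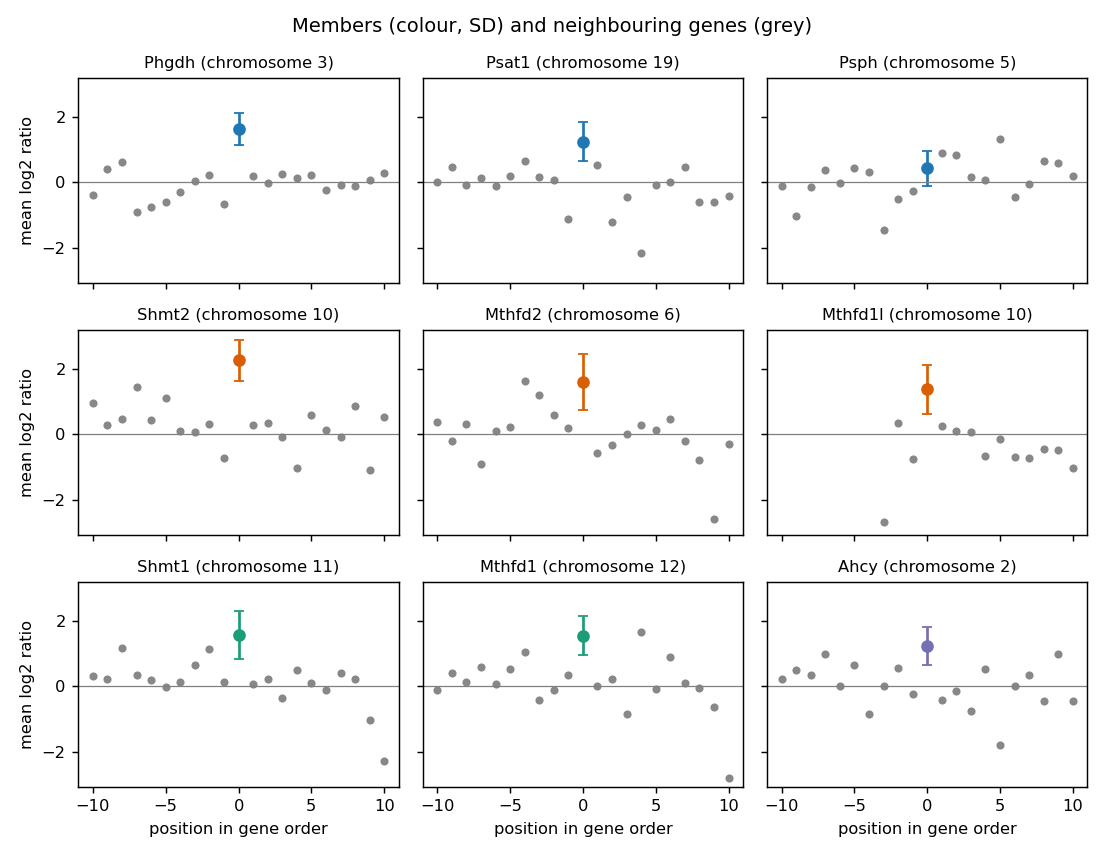
Mean log2 ratio of each enzyme and of its nearest measured genes in chromosome order, by position in genes from the enzyme (horizontal axis). Coloured points with SD bars are the enzymes and grey points the neighbours. The enzymes stand above the median of their neighbours by 1.19 to 2.02, except Psph, whose difference is 0.25.

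The wider pathway held genes that rose and genes that fell, and its counts are to be read against the 29.9% of all genes that passed as higher and the 27.9% that passed as lower. Of 15 measured genes of the folate cycle and folate transport, 7 rose, 5 fell and 3 did not pass, with a median of 0.36. Slc19a1, the reduced folate carrier, rose (1.13 ± 0.41, SD, n = 18, limma, adjusted p = 2.03e-08), as did Fpgs (0.77 ± 0.40), which traps folate in the cell by adding glutamates. Ggh, the hydrolase that removes those glutamates, was lower (-1.75 ± 1.43), and so was Aldh1l1 (-2.68 ± 1.49), the cytosolic enzyme that disposes of formyl units. Mthfs (-0.93), Mtfmt (-0.59) and Ftcd (-0.54) were lower too.

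Of 15 measured genes of the methionine cycle, methionine salvage, polyamine synthesis and transsulfuration, 7 rose, 3 fell and 5 did not pass, with a median of 0.34. Srm (1.94 ± 0.57), which makes the polyamine spermidine, and the salvage genes Mtap (1.66 ± 0.63) and Adi1 (1.32 ± 0.67) rose. Another salvage gene, Apip (0.07), named after its value was seen, did not pass. Mat2b (-0.995 ± 0.345), a regulatory subunit of S-adenosylmethionine synthetase, Cth (-1.15 ± 1.57), the last enzyme of cysteine synthesis, and Mat1a (-0.57 ± 0.57), the liver synthetase, fell. Of 12 methyltransferases that yield the substrate of Ahcy, 7 rose, 1 fell and 4 did not pass, with a median of 0.81. Prmt5 (1.39 ± 0.69), which methylates arginine, Pemt (1.34 ± 0.51), which makes phosphatidylcholine, Prmt3 (0.96 ± 0.47) and the maintenance DNA methyltransferase Dnmt1 (0.92 ± 0.46) were among the first, and Nnmt (-2.26 ± 1.81), which methylates nicotinamide, was the one that fell.

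Purine synthesis, which takes up formyl units, had 8 of 12 measured genes higher, 1 lower and 3 that did not pass, with a median of 0.76. Adsl (1.64 ± 0.45) had the smallest adjusted p of the list (limma, n = 18, 8.86e-10). Gart (1.30 ± 0.59) and Atic (1.23 ± 0.57), the enzymes that use formyl-tetrahydrofolate, rose, and so did Gmps (0.80 ± 0.41), while Impdh1 (-0.64 ± 0.47) fell. In glycine cleavage, Gcsh (0.77 ± 0.60, the carrier protein) rose (limma, n = 18, adjusted p = 8.97e-05), and Dld (-0.23) and Gldc (0.02) did not pass.

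Of 13 measured genes of serine supply and use, 5 rose, 2 fell and 6 did not pass, with a median of -0.04. The glycine transporter Slc6a9 had the largest change of that list, 2.29 ± 0.94 (SD, n = 18), 4.90-fold (limma, adjusted p = 3.29e-08). The mitochondrial serine transporter Sfxn1 (0.44 ± 0.35) and the phosphatidylserine synthases Ptdss2 (0.72 ± 0.71) and Ptdss1 (0.25 ± 0.42) also rose. So did Slc25a1 (0.72 ± 0.72), which is counted because the list held it but is a citrate carrier, not a serine gene. The genes that fell, named after their values were seen, were Slc38a2 (-0.57 ± 0.64), a transporter of neutral amino acids, and Sptlc1 (-0.23 ± 0.23), a subunit of serine palmitoyltransferase. Without the 7 lymphomas low in macrophage markers, 2 genes of this list passed as higher.

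Of the 7 listed regulators, Myc and Atf4 (above) and Eif2ak4 (0.40 ± 0.22), the kinase that senses uncharged tRNA, rose. Mycn (-1.36 ± 1.05) and Nfe2l2 (-0.29 ± 0.39), a factor of the oxidative stress response, fell. Max (-0.22), the partner of Myc, and Eif2ak3 (-0.19), a kinase of the unfolded protein response, did not pass (limma, n = 18, adjusted p = 0.0566 and 0.278). Cell cycle genes were mixed: 6 of 14 rose, 3 fell and 5 did not pass, with a median of 0.18. Aurka (0.79 ± 0.31), Aurkb (0.70 ± 0.52), Tpx2 (0.58 ± 0.38) and Plk1 (0.53 ± 0.19), regulators of mitosis, rose, and Ccnb2 (-0.39), Mki67 (-0.32) and Ccna2 (-0.20) fell.

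Markers of other cells stood as follows. Thymic epithelium markers were lower in 10 of 10 and T cell markers in 6 of 10, with 1 T cell marker higher. Of 11 macrophage markers 0 passed as higher and 2 as lower over all 18 lymphomas, and 6 as higher and 1 as lower without the 7. Of 10 endothelium and fibroblast markers 1 passed as higher and 3 as lower, and without the 7 it was 3 and 0, and of the 5 B cell and 5 erythroid markers measured 2 passed as higher and 2 as lower in each list. The mean of the T cell markers ran from -3.46 to 0.33 over lymphomas. The part of cell content in the changes of the enzymes was not tested.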

How the data were processed

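Total RNA was labelled with a dye swap per the labels' protocols, and the authors deposited 1 column of values per lymphoma for 41175 probes, taken here as log10 ratios. Base, centring and direction are not stated. For feature extraction, normalization and the averaging of dye swaps, the tools and settings were not given in the sources used here. Values were multiplied by log2 per log10 unit, 3.32. Probes with a value on at least 14 of 18 arrays were kept (2.27% to 7.79% of probes had none on an array), named through the platform annotation (31700 with 1 symbol, 47 with several, 9428 with none here) and averaged per gene.

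The mean ratio was tested against 0 with limma 3.58.1 (R 4.3.3) and Benjamini-Hochberg adjustment over 18147 genes at 0.05, a fit tested on simulated data. Permutation tests drew 100000 resamples (scipy 1.17.1). No spot signals were used, so the number of arrays limits the precision. Lymphomas keep their label numbers.

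The enzymes and gene lists were chosen with earlier results of these data known. Named are the 9 enzymes, Atf4, Myc, Atm and Terc, the 6 most correlated genes (SD at least 0.3), neighbours, and in each list every gene of up to 8, otherwise the 4 with the smallest adjusted p and those passing against the list median.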

Additional observations from a re-analysis of the deposited data

How the results depend on the processing

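All 9 enzymes passed as higher under every alternative tried: probe summary (median, 1 probe), centring, quantile normalization, filters on missing values, array weights, a trended robust fit, base 2, and the fits without some lymphomas. Leaving out 1 lymphoma at a time moved the mean of Psph between 0.33 and 0.49 (limma, n = 17 each, largest adjusted p = 0.0150). With the deposited values taken as base 2, each log2 value was smaller by the factor 3.32. The calls were then the same, as a change of scale cannot alter them. Only 3 genes in place of 781 then passed as at least 2-fold higher, without any of the 9 enzymes. Without the 7 lymphomas low in macrophage markers, 3556 genes passed as higher, 0 member pairs and 0 relations with Atf4, Myc or the cell cycle passed, 2 genes of serine supply and use were higher, and 1 upstream regulator and 1 cell cycle gene were lower (main counts 5419, 12, 2, 5, 2 and 3). Without the 3 least correlated lymphomas 4 member pairs passed. Leaving out each lymphoma in turn gave 5 to 13 pairs and 1 to 4 relations, and the relations numbered 1 after centring and 4 after quantile normalization. The mean difference of Mthfd2 less Mthfd1 changed sign to -0.030 with quantile normalization and -0.16 without the 7, and ran from -0.077 to 0.10 over the fits without 1 lymphoma, never passing. The leave-one-out fits of pairs and correlations were chosen after seeing the data. Each count without the 7 rests on 11 lymphomas in place of 18. No paired analysis was possible because all lymphomas form 1 group and share 1 reference.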

Other observations

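A pattern noticed in the correlations concerns the cytosolic folate enzymes. Phgdh, Psat1, Shmt2, Mthfd2 and Mthfd1l were each set against Shmt1 and Mthfd1, giving 10 pairs that were chosen after their values were seen. Over all 18 lymphomas the 10 values of r were positive, from 0.20 to 0.40. In the 7 lymphomas low in macrophage markers all 10 were negative, from -0.79 to -0.39 with a median of -0.58. In the same 7 the mean of the macrophage markers correlated with Mthfd1 at r = 0.82 and Shmt1 at 0.64, and with Phgdh, Mthfd2, Mthfd1l, Psat1 and Shmt2 at -0.21, -0.33, -0.35, -0.40 and -0.60, none of which passed. The part of these markers in the pattern was not tested. In the other 11 none of the 10 pairs was negative, and the 10 values ran from 0.05 to 0.61 with a median of 0.48. The difference between these sets of lymphomas was not tested. In the same 7 lymphomas Atf4 correlated with Psat1 at r = 0.98, and in the other 11 at r = -0.02. This relation, too, was named after its values were seen. Without the 2 lymphomas farthest in Atf4, r in the 11 was 0.51. The difference between the 7 and the 11 was not tested here either.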
